A study of Mus musculus with 8 samples.

Results

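A set of immediate early genes was followed through cold-exposed inguinal white adipose tissue (iWAT) of mice that lack the m6A reader gene Ythdf1 in adipocytes. The members were taken by symbol and were Fos, Fosb, Jun, Junb, Egr1, Ier2, Atf3, Nr4a1, Zfp36 and Dusp1, which are 10 of the 17264 genes in the tables. All 10 were found in both assays. Y1cKO mice carried 2 floxed alleles of Ythdf1 (Ythdf1 flox/flox) and Adipoq-Cre, a Cre driven by an adipocyte promoter that removes the fourth exon. Y1CTL mice were Ythdf1 flox/flox littermates without Cre. All were male C57BL/6 mice of 9 weeks that had been kept at 4 °C for 7 days. Whole iWAT was used, so that cells in which Adipoq-Cre does not act also gave RNA. RNA-seq measured polyadenylated transcripts, and Ribo-seq measured the mRNA fragments under ribosomes (footprints). Each genotype had 2 libraries per assay, 8 in all, and tissue lysate was divided between the assays. The labels do not say that replicates were separate animals, so a p-value covers the spread from library to library alone, and this spread may be technical.

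Immediate early genes are switched on within minutes of a stimulus by transcription factors that already sit in the cell, so that no new protein has to be made first. In adipocytes, noradrenaline released in the cold acts through beta-adrenergic receptors and cyclic AMP, and the transcription factor CREB then binds cAMP response elements in promoters. Growth factors and mitogen-activated protein kinases act in part through serum response factor, which binds the CArG box. The transcripts are short-lived, and they are also known to respond to handling and dissection of tissue. Fos, Fosb, Jun and Junb encode subunits of the AP-1 transcription factor, Atf3 encodes a bZIP factor of the ATF family, and Egr1 and Nr4a1 encode a zinc finger factor and an orphan nuclear receptor. Ier2 encodes a nuclear regulator. Zfp36 (tristetraprolin) speeds the decay of mRNAs with AU-rich elements, and Dusp1 is a phosphatase that switches off mitogen-activated protein kinases.

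The promoters of 8 members, all but Egr1 and Ier2, were present among 32851 RefSeq promoters (GRCm38.p6). The 250 bases before the start site were searched on both strands, to show a feature of these genes that the choice by symbol did not use. Sites farther from the start site were not searched, so a motif not found here may lie outside this stretch. The short form of the cAMP response element, TGACG, was found in 6 of the 8 members, in Fos, Fosb, Junb, Atf3, Nr4a1 and Dusp1, and in 17.8% of all promoters. The full element TGACGTCA, which holds the short form once on each strand, was found only in Dusp1 among the 8 and in 1.55% of all promoters. The CArG box was found only in Zfp36 (1.47% of all promoters), and the TATA box TATAAA only in Fos (12.4%). The variant AP-1 site TGACATCA, searched after the Jun promoter had been read, was found only in Jun (2.93%). Nr4a1 held 4 short forms, Dusp1 held 1 besides the full element, and Fos held 2. One site of each of the 8 promoters is printed below with 10 bases on each side where the stretch before the start site allows, with the motif in capitals, 5′ to 3′ on the gene's strand.
Fos, short form, chr12:85473814-85473838, plus strand: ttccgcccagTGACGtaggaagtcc
Fosb, short form, chr7:19310091-19310115, minus strand: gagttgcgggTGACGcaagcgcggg
Junb, short form, chr8:84978840-84978864, minus strand: ttcctgacagTGACGcgagccgcct
Nr4a1, short form in reverse, chr15:101266796-101266820, plus strand: cctctccatgCGTCAcggagcgctt
Atf3, short form in reverse, chr1:191183334-191183350, minus strand: aatagcattaCGTCAgc
Dusp1, full element, chr17:26508598-26508625, minus strand: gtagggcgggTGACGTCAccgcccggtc
Zfp36, CArG box, chr7:28379267-28379296, minus strand: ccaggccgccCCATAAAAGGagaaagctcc
Jun, variant AP-1 site, chr4:95052250-95052277, minus strand: agcctcggggTGACATCAtgggctattt
A motif match describes the sequence and was not tested as a binding site.

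Levels are given in RPKM, reads per kilobase of transcript (RNA-seq) or of coding sequence (Ribo-seq) and scaled to sequencing depth, so that genes of different length can be set side by side. Reads in genes were 12211351 and 16429015 for the Y1cKO RNA-seq libraries, against 3958284 and 4963613 for the Y1CTL ones, and 7364523 to 11862838 for Ribo-seq. Ythdf1 itself was lower in both Y1cKO libraries than in both Y1CTL libraries in each assay, at 7.17 and 7.98 RPKM in Y1cKO against 8.01 and 11.5 RPKM in Y1CTL by RNA-seq. The 10 adipocyte markers were detected in every library, with summed levels of 9667 to 18075 RPKM by RNA-seq. Libraries stood apart in other markers. In Y1CTL RNA-seq replicate 2, 11 T cell markers summed to 140.3 RPKM and 13 B cell and lymph node markers to 358 RPKM, while no other library of that assay exceeded 3.66 and 1.96 RPKM. In Y1CTL RNA-seq replicate 1, Cd3e, Cd3g, Cd28, Cd2 and Lat, and 9 of the 13 B cell and lymph node markers including Cd79a, Ms4a1 and Pax5, had 0 reads. In Y1cKO RNA-seq replicate 1, 12 skeletal muscle markers summed to 277 RPKM, while the remaining libraries of that assay reached at most 4.06 RPKM and had 0 reads of Ckm and Tnni2. In the Ribo-seq libraries the T cell markers summed to 406 to 539 RPKM, the B cell and lymph node markers to 904 to 1243 RPKM and the muscle markers to 9.61 to 32.1 RPKM. In such bulk tissue, fewer cells of a type and less RNA per cell cannot be told apart.

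By Ribo-seq, the footprint levels of the members fell into clear steps. Jun was highest at 23.1 ± 4.33 RPKM (SD over the 4 libraries), followed by Ier2 at 21.8 ± 1.56 RPKM, Junb at 19.6 ± 1.36 RPKM and Zfp36 at 19.6 ± 2.58 RPKM. The ranges of neighbours among these overlapped, and all 4 genes lay above every library of the next gene. Dusp1 had 9.20 ± 1.10 RPKM and Egr1 6.94 ± 1.42 RPKM, with overlapping ranges. Below them came Nr4a1 at 3.07 ± 0.753 RPKM, Atf3 at 2.68 ± 1.24 RPKM and Fos at 2.26 ± 1.40 RPKM, which also overlapped. Fosb was lowest, at 0.456 ± 0.185 RPKM, from 18 reads over the 4 libraries. Jun stood at the 75.8 percentile and Fosb at the 26.5 percentile of all genes.

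By RNA-seq the order differed. Dusp1 was highest at 16.6 ± 2.37 RPKM, followed by Zfp36 at 12.1 ± 3.37 RPKM and Jun at 10.04 ± 2.50 RPKM (SD over 4 libraries). Egr1 (5.60 ± 2.38 RPKM), Junb (4.95 ± 2.01 RPKM) and Ier2 (4.67 ± 1.63 RPKM) came next, and Nr4a1, Fos, Atf3 and Fosb were at 1.71 ± 0.884, 1.27 ± 0.522, 0.641 ± 0.963 and 0.286 ± 0.159 RPKM. The only neighbours whose ranges lay apart were Ier2 and Nr4a1. Fosb rests on 36 RNA-seq reads and Atf3 on 64, so that counting error alone is large for both.

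**Figure D1:**
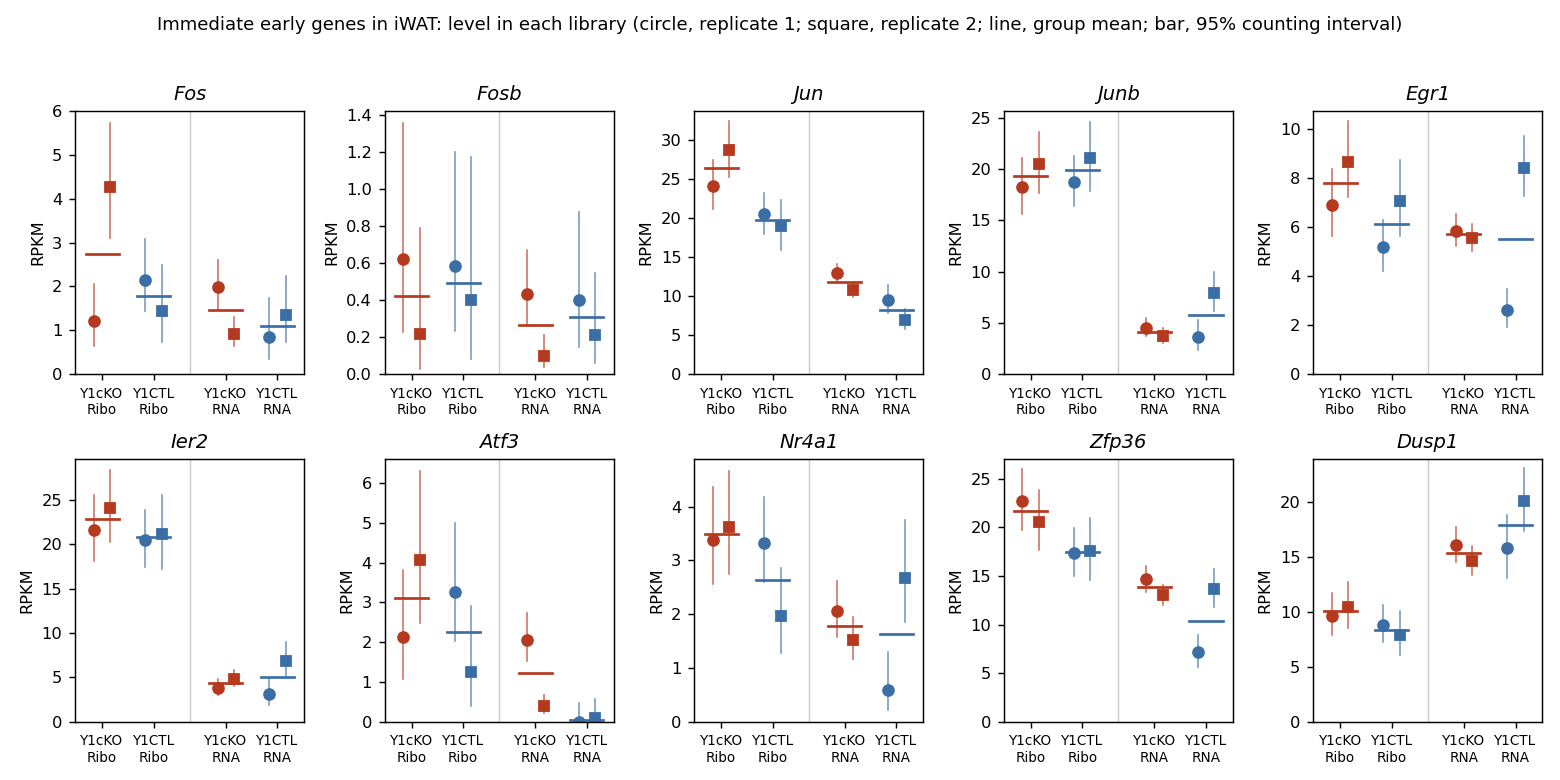
Level of each member in each library in RPKM (y axes from 0, scales differ), with Y1cKO left of Y1CTL in Ribo-seq and then RNA-seq; circles are replicate 1, squares replicate 2, lines group means and bars 95% Poisson intervals, which cover counting error only. Jun has both Y1cKO libraries above both Y1CTL libraries in each assay, while Egr1 ranges between 2.59 and 8.40 RPKM within the Y1CTL RNA-seq libraries.

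In the comparison of footprints between genotypes, which asks whether ribosome occupancy of these genes differed without Ythdf1 in adipocytes, 8 of 9 members tested had a value above 0 for Y1cKO minus Y1CTL on the log2(RPKM + 0.5) scale, a scale that understates the change of low genes. No member passed an adjusted p of 0.05 in limma (Benjamini-Hochberg over 12602 genes), and 0% of all genes did. Fosb lay below the minimum mean of 0.5 RPKM and was not tested. The median over the 9 members was 0.33, beside 0.01 over all genes tested. One member, Jun, had an unadjusted p under 0.05 (2.75% of all genes, 347 of 12602). In 5 members, Jun, Zfp36, Dusp1, Nr4a1 and Ier2, both Y1cKO libraries lay above both Y1CTL libraries, as did 15.4% of all genes tested. In none did both lie below, as in 14.1% of all genes. With each library left out in turn, 8 or 9 of the 9 or 10 members then tested were above 0, though not always the same ones: Fos turned to -0.41 without Y1cKO replicate 2, Atf3 to -0.12 and Junb to 0.05 without Y1CTL replicate 2, and Junb to 0.04 without Y1cKO replicate 1. The members' median then lay between 0.15 (without Y1CTL replicate 2) and 0.43 (without Y1cKO replicate 1). The members share 4 libraries and are not independent of each other. Of 10 beige adipocyte markers, 8 were above and 2 below 0 by Ribo-seq (median 0.33), while 9 of 10 vascular endothelial markers were below 0 (median -0.18). The beige adipocyte markers summed to 8251 and 6706 RPKM in the Y1cKO Ribo-seq libraries and to 9307 and 3561 RPKM in the Y1CTL Ribo-seq libraries, with overlapping groups. Of 11 T cell markers, 10 were above 0 by Ribo-seq (median 0.24), and they summed to 514 and 539 RPKM in Y1cKO against 509 and 406 RPKM in Y1CTL. Among the 13 markers of B cells and lymph node, 12 were above 0 (median 0.20), and they summed to 1133 and 1243 RPKM in Y1cKO against 1076 and 904 RPKM in Y1CTL. Of 10 adipose progenitor and fibroblast markers, 9 were above 0 (median 0.16), with overlapping sums. No T cell or B cell marker was at 0 in any Ribo-seq library. The part of these cell types in the members' values was not tested.

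Jun (ENSMUSG00000052684), the AP-1 subunit with the highest footprint level of the 10, had 24.1 and 28.7 RPKM in the Y1cKO Ribo-seq libraries, against 20.5 and 19.0 RPKM in the Y1CTL Ribo-seq libraries. The log2 difference was 0.41 (standard error 0.16, 95% interval 0.03 to 0.78, unadjusted p = 0.0370, adjusted p = 1.00 in limma), and it rests on 490 reads in Y1cKO and 384 in Y1CTL. It lay between 0.28 and 0.53 with each library left out in turn. By RNA-seq Jun had 12.9 and 10.7 RPKM in the Y1cKO libraries, against 9.51 and 6.95 RPKM in the Y1CTL libraries. The log2 difference was 0.51 (interval -0.07 to 1.09, unadjusted p = 0.0729, adjusted p = 0.453 in limma), and it was 0.35 with the libraries scaled to the same median. Leaving out Y1CTL replicate 2 gave 0.30, and leaving out replicate 1 gave 0.72. Jun was the only one of the 10 members whose groups lay apart in both assays, with Y1cKO higher in each. Among all genes, groups lay apart in that direction in 15.4% by Ribo-seq and in 36.9% by RNA-seq. The share of all genes apart in both assays was not computed, so this does not single Jun out. The difference in translational efficiency, footprints per transcript, was -0.10 (interval -0.76 to 0.56) and turned to 0.05 after the same scaling.

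Junb (ENSMUSG00000052837), a relative of Jun that forms AP-1 dimers with Fos proteins, was nearly level in footprints. It had 18.2 and 20.5 RPKM in the Y1cKO Ribo-seq libraries, against 18.7 and 21.1 RPKM in the Y1CTL Ribo-seq libraries (log2 difference -0.04, 95% interval -0.40 to 0.33). Its highest Ribo-seq library was 1.15 times its lowest, the smallest ratio of the 10 members. By RNA-seq it had 4.53 and 3.73 RPKM in Y1cKO, against 3.63 and 7.91 RPKM in Y1CTL, so that the groups overlapped and 1 Y1CTL library held the highest value. Without that library, Y1CTL RNA-seq replicate 2, the log2 difference of -0.35 turned to 0.16.

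Fos (ENSMUSG00000021250), the partner of Jun in the classic AP-1 dimer, had 1.20 and 4.27 RPKM in the Y1cKO Ribo-seq libraries, against 2.14 and 1.43 RPKM in the Y1CTL Ribo-seq libraries. The Y1cKO libraries lay on either side of both Y1CTL libraries, and the log2 difference of 0.33 (interval -0.84 to 1.51) turned to -0.41 without Y1cKO replicate 2. By RNA-seq it had 1.98 and 0.924 RPKM in Y1cKO, against 0.839 and 1.34 RPKM in Y1CTL, and the difference of 0.26 turned to -0.14 without Y1cKO replicate 1. Under the sample labels, the higher Y1cKO library was replicate 2 in Ribo-seq and replicate 1 in RNA-seq. The headers of the Y1cKO RNA-seq data swap these numbers, so whether the assays differ here is not settled. Fosb (ENSMUSG00000003545), a close relative of Fos, had 0.622 and 0.218 RPKM in the Y1cKO Ribo-seq libraries, from 6 and 2 reads, against 0.582 and 0.402 RPKM in the Y1CTL Ribo-seq libraries, from 7 and 3 reads. By RNA-seq it had 0.433 and 0.0966 RPKM in Y1cKO, against 0.401 and 0.213 RPKM in Y1CTL. A difference between genotypes was not detectable at this depth for Fosb.

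Atf3 (ENSMUSG00000026628), a stress-responsive bZIP factor, had the largest RNA-seq difference of the members tested. It had 2.06 and 0.399 RPKM in the Y1cKO libraries, from 50 and 13 reads, against 0 and 0.102 RPKM in the Y1CTL libraries, from 0 and 1 read. A count of 0 allows up to 3 reads, or 0.382 RPKM in that library, as a one-sided limit. Both Y1cKO libraries lay above both Y1CTL libraries, but the second Y1cKO value was inside the two-sided 95% counting intervals of both Y1CTL libraries, which reached 0.470 and 0.566 RPKM. Over the pooled reads, 63 in Y1cKO and 1 in Y1CTL, the depth-corrected ratio was 19.6 (95% interval 3.40 to 787, counting error only). Of those 63 reads 50 came from Y1cKO replicate 1, and without it the ratio was 7.06 (interval 1.06 to 300.02, a setting chosen after seeing the data). The fitted log2 difference was 1.47 (interval -0.24 to 3.18, unadjusted p = 0.0803, adjusted p = 0.463 in limma). Without Y1cKO replicate 1 Atf3 fell below the minimum level and was not tested, and without Y1cKO replicate 2 the difference was 2.22. The library with the highest value, Y1cKO RNA-seq replicate 1, is the one with the skeletal muscle transcripts, whose part in the Atf3 value was not tested. By Ribo-seq Atf3 had 2.13 and 4.08 RPKM in Y1cKO, against 3.26 and 1.25 RPKM in Y1CTL. The groups overlapped there, and the log2 difference of 0.44 turned to -0.12 without Y1CTL replicate 2.

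Egr1 (ENSMUSG00000038418), a zinc finger factor induced through serum response factor, had 6.90 and 8.65 RPKM in the Y1cKO Ribo-seq libraries, against 5.17 and 7.05 RPKM in the Y1CTL Ribo-seq libraries (log2 difference 0.33, interval -0.19 to 0.86). The groups overlapped, and the difference was 0.18 without Y1cKO replicate 2. Leaving out Y1CTL replicate 1 gave 0.13, and leaving out Y1CTL replicate 2 gave 0.54. By RNA-seq the Y1cKO libraries were close to each other at 5.84 and 5.55 RPKM, and both Y1CTL libraries lay outside them, at 2.59 and 8.40 RPKM. The RNA-seq difference was 0.24, and leaving out Y1CTL replicate 1 turned it to -0.52, while leaving out replicate 2 gave 1.00. Nr4a1 (ENSMUSG00000023034), an orphan nuclear receptor induced by cyclic AMP, had 3.38 and 3.62 RPKM in the Y1cKO Ribo-seq libraries, against 3.32 and 1.96 RPKM in the Y1CTL Ribo-seq libraries. Its groups lay apart by a narrow margin (log2 difference 0.38, interval -0.26 to 1.03), and without Y1CTL replicate 2 the difference was 0.07, while leaving out replicate 1 gave 0.70. By RNA-seq it had 2.05 and 1.53 RPKM in Y1cKO, against 0.594 and 2.68 RPKM in Y1CTL. The Y1CTL libraries again enclosed the Y1cKO libraries, and the difference of 0.29 turned to -0.49 without Y1CTL replicate 1.

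Zfp36 (ENSMUSG00000044786), the mRNA decay factor, had 22.7 and 20.6 RPKM in the Y1cKO Ribo-seq libraries, against 17.4 and 17.6 RPKM in the Y1CTL Ribo-seq libraries. The log2 difference was 0.30 (interval -0.05 to 0.65, unadjusted p = 0.0783, adjusted p = 1.00 in limma), and it lay between 0.23 and 0.37 with each library left out. By RNA-seq Zfp36 had 14.6 and 13.0 RPKM in Y1cKO, against 7.15 and 13.6 RPKM in Y1CTL. There the groups overlapped, and the difference of 0.46 became 0.02 when Y1CTL replicate 1 was left out and 0.90 when replicate 2 was. Dusp1 (ENSMUSG00000024190), the kinase phosphatase, had 9.64 and 10.5 RPKM in the Y1cKO Ribo-seq libraries, against 8.80 and 7.89 RPKM in the Y1CTL Ribo-seq libraries (log2 difference 0.25, interval -0.14 to 0.65). Its transcript values overlapped between genotypes, with 16.05 and 14.6 RPKM in Y1cKO, against 15.7 and 20.0 RPKM in Y1CTL (log2 difference -0.21, interval -0.70 to 0.29). Without Y1CTL replicate 2 that difference was -0.04, and leaving out replicate 1 instead gave -0.38. Ier2 (ENSMUSG00000053560) had 21.6 and 24.0 RPKM in the Y1cKO Ribo-seq libraries, against 20.5 and 21.1 RPKM in the Y1CTL Ribo-seq libraries (log2 difference 0.13, interval -0.22 to 0.47), and the difference was 0.05 without Y1cKO replicate 2 and 0.21 without Y1cKO replicate 1. By RNA-seq it had 3.82 and 4.83 RPKM in Y1cKO, against 3.15 and 6.87 RPKM in Y1CTL, and the difference of -0.11 turned to 0.04 without Y1cKO replicate 1 and to 0.39 without Y1CTL replicate 2.

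In the comparison of transcripts between genotypes, 6 of the 9 members tested were above 0 for Y1cKO minus Y1CTL, which were Fos, Nr4a1, Atf3, Egr1, Zfp36 and Jun. No member passed an adjusted p of 0.05 in limma (adjusted p between 0.453 and 0.915), none had an unadjusted p under 0.05, and among all 12435 genes 0% passed the adjusted and 11.8% the unadjusted threshold. The members' median was 0.26, beside 0.17 over all genes, and scaling the libraries to the same median gave 0.10 for the members, beside 0.01 for all genes. Groups lay apart with Y1cKO higher in 2 members, Jun and Atf3, and in 36.9% of all genes, and with Y1cKO lower in none of the members and in 10.7% of all genes. With a library left out, between 4 of 9 and 8 of 9 members were above 0, and the members' median turned to -0.38 without Y1CTL replicate 1. By RNA-seq all 10 progenitor and fibroblast markers were above 0 (median 0.95), summing to 3751 and 3277 RPKM in Y1cKO against 1537 and 1032 RPKM in Y1CTL. All 10 adipocyte (median 0.55) and 10 vascular endothelial markers (0.46) were also above 0. Below 0 were 9 of 10 beige adipocyte markers (-1.03), 11 of 11 T cell markers and 13 of 13 markers of B cells and lymph node. The part of cell types in the members' RNA-seq values was not tested.

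**Figure D2:**
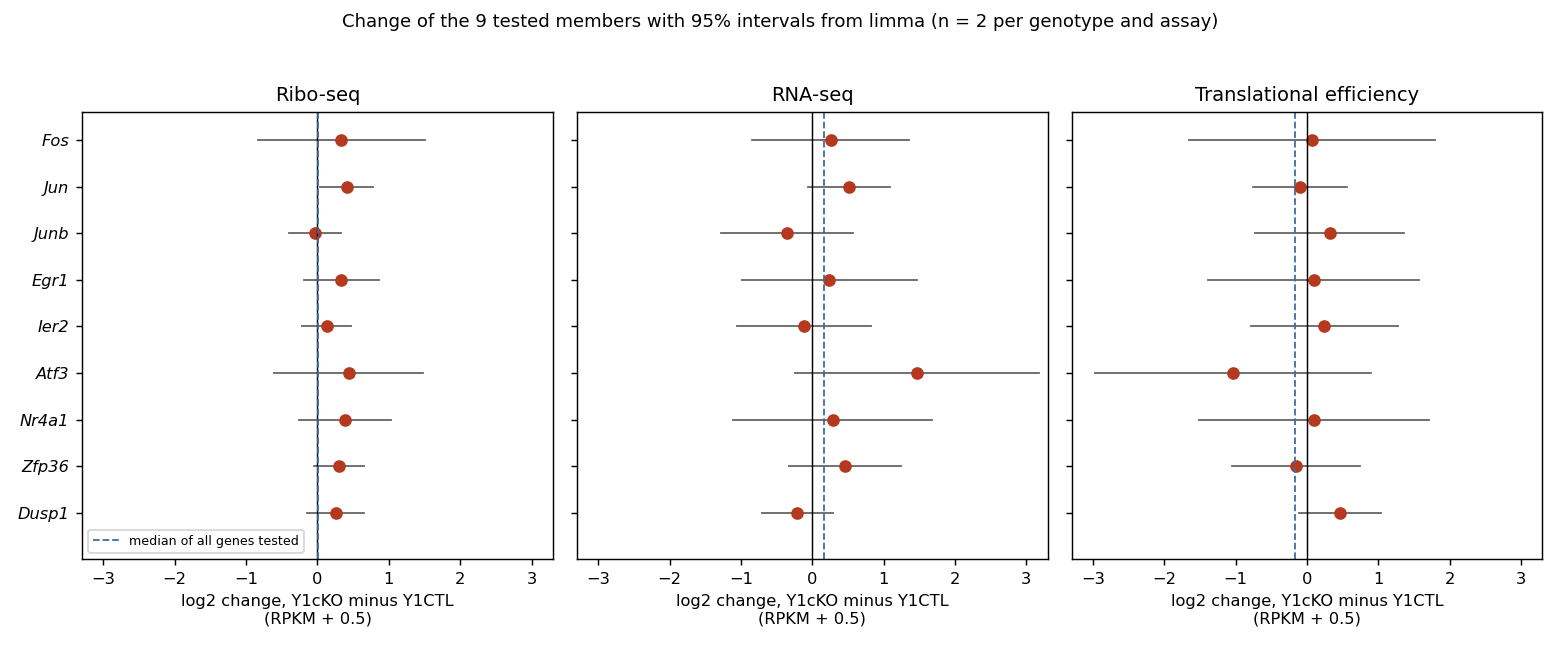
Log2 difference of the 9 members tested, Y1cKO minus Y1CTL, for Ribo-seq, RNA-seq and translational efficiency (points), with 95% intervals from limma (lines) and the median of all genes tested (dashed line). In Ribo-seq 8 of 9 points lie right of 0, and the intervals of 8 of 9 members include 0, the exception being Jun.

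The 2 libraries of a group also differed from each other. In Y1CTL RNA-seq, replicate 2 was above replicate 1 in 7 of the 9 members that had reads in both, with a median ratio of 1.91. Among all genes that averaged 0.5 RPKM or more in the group, 48.4% were higher in replicate 2, with a median ratio of 0.985. The ratio was 4.52 for Nr4a1 (95% counting interval 1.88 to 13.2), 3.24 for Egr1 (2.34 to 4.58), 2.18 for Junb (1.37 to 3.56), 2.18 for Ier2 (1.27 to 3.91) and 1.91 for Zfp36 (1.46 to 2.51). These intervals, and that of Dusp1 at 1.27 (1.01 to 1.61), lay above 1. Jun and Fosb went the other way, and for Jun the ratio was 0.731 (0.559 to 0.955), so that the 2 libraries differed beyond counting error in 7 members. Counting intervals of these ratios were computed for the members only, in every group. The share of all genes beyond counting error is therefore not known, and these counts do not set the members apart. Replicate 2 is the library with T cell, B cell and lymph node transcripts, and their part in these ratios was not tested.

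The Ribo-seq libraries of Y1CTL did not show that step. Replicate 2 over replicate 1 had a median of 0.910 over the 10 members, with 1.13 for Junb, 1.03 for Ier2 and 1.01 for Zfp36, an interval above 1 only for Egr1 (1.36, interval 1.01 to 1.85) and an interval below 1 only for Nr4a1 (0.590, interval 0.361 to 0.936). In the Y1cKO RNA-seq libraries, 9 of 10 members were lower in replicate 2 than in replicate 1 (all but Ier2), with a median ratio of 0.828, while 36.8% of all genes were higher in replicate 2 and their median ratio was 0.929. The interval lay below 1 in 4 of these members, Fos, Fosb, Jun and Atf3. Atf3 had the lowest ratio there, 0.193 (0.0963 to 0.361), and Fos had 0.466 (0.290 to 0.740). These numbers follow the labels. The headers swap them for the Y1cKO RNA-seq libraries, so the direction of these ratios beside those of Ribo-seq is not settled. In the Y1cKO Ribo-seq libraries, 8 of 10 were higher in replicate 2, as were 62.5% of all genes (median ratio 1.12 for the members and 1.05 for all genes), and the interval lay above 1 only for Fos (3.56, interval 1.88 to 7.21).

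**Figure D3:**
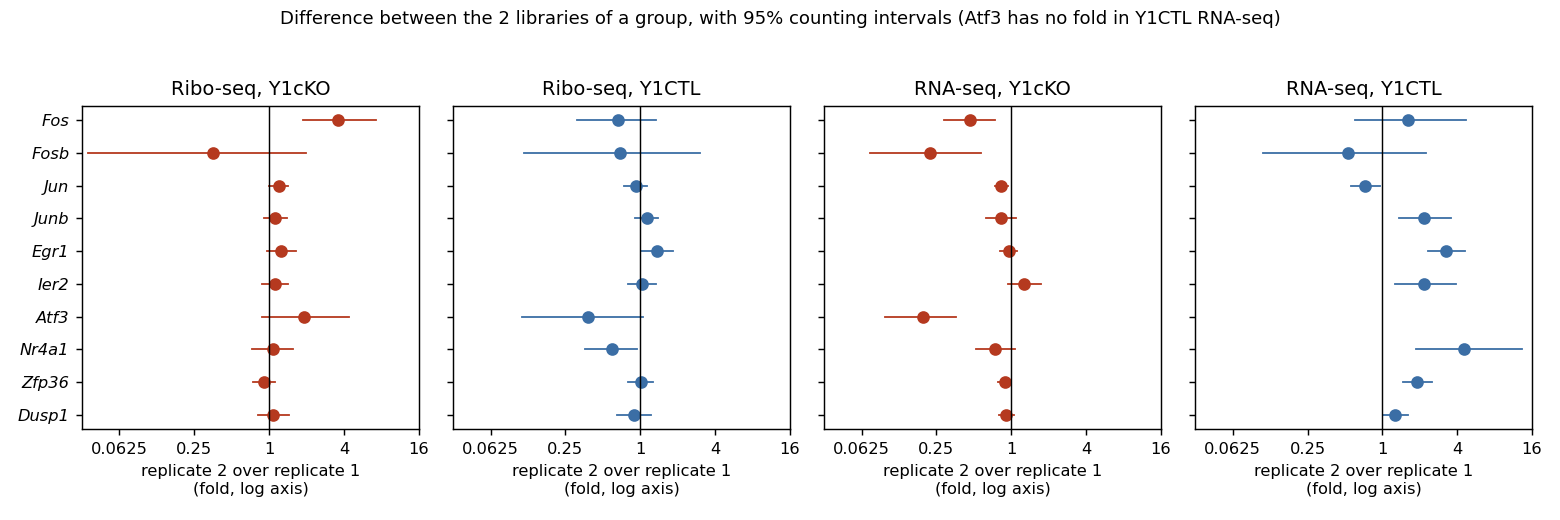
Ratio of replicate 2 to replicate 1 within each group (log axis) for every member with reads in both libraries, with 95% counting intervals (lines). Intervals that leave out 1 are seen for 4 members in the Y1cKO RNA-seq libraries (all below 1), for 7 in the Y1CTL RNA-seq libraries (6 above and 1 below), for 1 in the Y1cKO Ribo-seq libraries (above) and for 2 in the Y1CTL Ribo-seq libraries (1 above and 1 below). The intervals were not computed for all genes.

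Translational efficiency (TE), the Ribo-seq over the RNA-seq level of a gene, differed widely among the members. Over all libraries the log2 TE was 2.16 for Ier2 and 1.95 for Junb, at the 81.9 and 77.3 percentile of 11792 genes measured in both assays, whose median was 0.94. Footprints of both genes exceeded their transcripts in all 8 pairings of a Ribo-seq with an RNA-seq library of the same genotype. Dusp1 stood at the other end, with a log2 TE of -0.82 at the 9.29 percentile, and its footprints were below its transcripts in all 8 pairings. The log2 TE of Ier2 was above that of Dusp1 by 2.62 to 3.52 in the 8 pairings, and that of Junb by 2.33 to 3.34. Between these ends lay Atf3 (1.71, from few reads), Jun (1.18), Nr4a1 (0.77), Zfp36 (0.71), Fos (0.56), Egr1 (0.36) and Fosb (0.28, below the minimum level). Raising the minimum to 2 RPKM in both assays left Ier2 at the 81.4, Junb at the 76.5 and Dusp1 at the 7.71 percentile. The assays differed unequally across cell type markers. Macrophage markers summed to 108 to 176 RPKM by RNA-seq and 3427 to 3954 RPKM by Ribo-seq. T cell markers summed to 1.91 to 140 RPKM and 406 to 539 RPKM, but vascular endothelial markers to 257 to 384 RPKM and 283 to 476 RPKM. The part of cell types in the TE levels of the members was not tested.

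**Figure D4:**
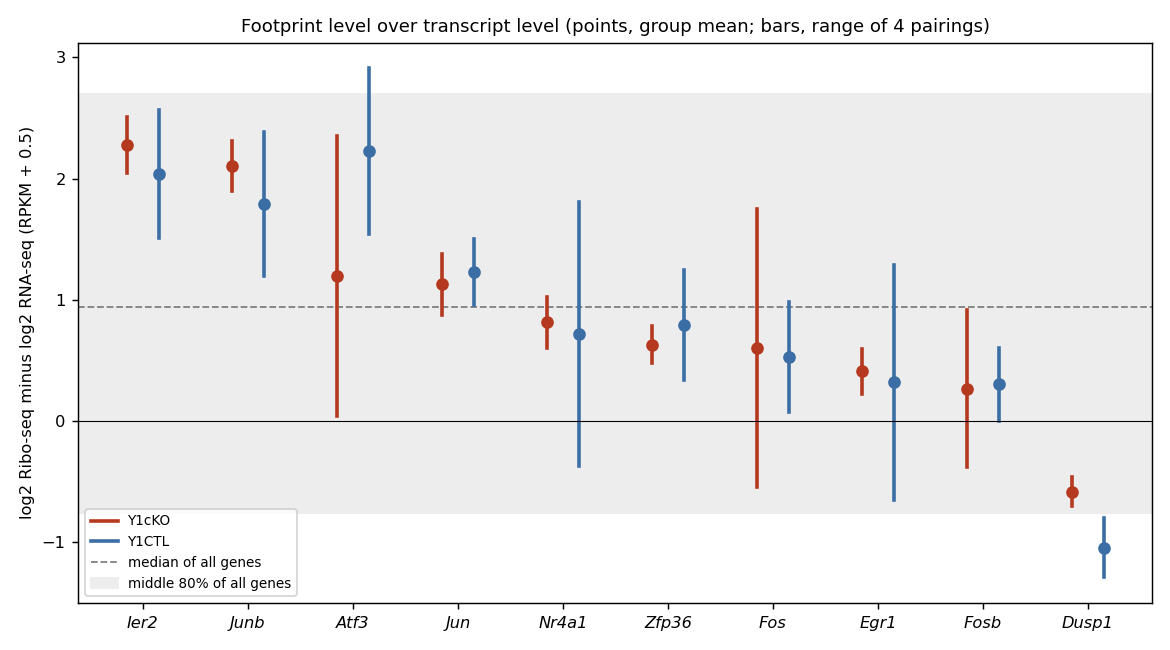
Log2 Ribo-seq minus log2 RNA-seq level (RPKM + 0.5) of each member in Y1cKO and Y1CTL (points, group means; bars, range over the 4 pairings of libraries in a genotype), with the median (dashed) and the middle 80% of all genes (grey). Ier2 and Junb lie above the median of 0.94 in every pairing, and Dusp1 lies below 0 in every pairing of both genotypes.

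Between genotypes, Dusp1 was the member with the smallest p for TE. Its log2 TE was -0.59 in Y1cKO (pairings -0.71 to -0.47), against -1.05 in Y1CTL (pairings -1.29 to -0.80), so that every Y1cKO pairing lay above every Y1CTL pairing. The difference of 0.46 (standard error 0.25, interval -0.12 to 1.04) had an unadjusted p of 0.102 and an adjusted p of 0.583 in limma, and lay between 0.22 and 0.71 with each pair of same-numbered libraries left out. It was 0.62 after scaling to the same median. Of the 9 members tested, 6 were above 0, with a median of 0.09, beside -0.17 over all genes, and after scaling the medians were 0.25 for the members and -0.02 for all genes. Lymphocyte markers were above 0 for TE as well, 11 of 11 T cell markers (median 1.98) and 13 of 13 markers of B cells and lymph node (median 2.60), with Y1CTL RNA-seq replicate 2 in their denominator, and their part in the members' values was not tested. No member passed an adjusted p of 0.05 in limma and none an unadjusted p of 0.05, beside 0% and 8.66% of all genes. Pairings lay apart with Y1cKO higher in 1 member, Dusp1, and in 5.4% of all genes, and with Y1cKO lower in none of the members and in 20.8% of all genes. Atf3 had the lowest value, -1.03 (interval -2.97 to 0.90), with the 0 and 1 RNA-seq reads of Y1CTL in its denominator. With libraries left out, between 2 and 7 of the members were above 0.

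The transcripts of the members, as the tables give them, had a median coding length of 1023 bases, beside 1338 bases over all genes, and 8 of 10 lay below that median. Atf3 had the shortest coding sequence (543 bases) and Nr4a1 the longest (1803 bases). In contrast, 8 of 10 had a 5′ leader longer than the 167-base median of all genes. The leaders of Egr1 (1666 bases), Zfp36 (1056 bases) and Jun (951 bases) were longer than those of 99.6%, 98.5% and 98.0% of genes, while that of Ier2 had 103 bases. The RNA-seq values count the whole transcript and the Ribo-seq values the coding part, so the level of TE depends on these annotated lengths. Differences between genotypes of 1 gene depend on them only through the added 0.5 RPKM and the minimum level, which weigh on low genes.

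The other genes of the response were read in lists made by hand with earlier results of these data known, and 0 passed an adjusted p of 0.05 in limma in any comparison. Of 11 other AP-1 and bZIP partners, 10 were tested by Ribo-seq, 4 above and 6 below 0 with a median of -0.03. Of these 10, 1 had an unadjusted p under 0.05 in limma, beside 2.75% of all genes. Batf, a bZIP partner of Jun proteins in lymphocytes, had the smallest p there, with 6.17 and 4.72 RPKM in Y1cKO against 3.60 and 3.62 RPKM in Y1CTL (log2 difference 0.52, unadjusted p = 0.0422 in limma). Jund, an AP-1 subunit with a steady level in many tissues, had 38.2 and 24.4 RPKM in Y1cKO against 20.0 and 24.3 RPKM in Y1CTL by RNA-seq (log2 difference 0.46). Maff, a small Maf protein, had 9.21 and 10.4 RPKM in Y1cKO against 6.66 and 8.41 RPKM in Y1CTL by Ribo-seq. Its transcripts were low, at 1.09 and 2.52 RPKM in Y1cKO against 1.94 and 4.22 RPKM in Y1CTL. Its TE difference was 1.00 (unadjusted p = 0.116 in limma). For TE 2 of the 10 partners tested were above 0 and 8 below, with a median of -0.18, beside -0.17 over all genes. Mafk had the smallest p there (TE difference -0.75, unadjusted p = 0.0823 in limma).

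Of 20 other immediate early transcription factors, all tested, 10 were above and 10 below 0 by Ribo-seq, with a median of 0.01. Egr3, a relative of Egr1, had 2.54 and 4.39 RPKM in Y1cKO against 1.60 and 1.52 RPKM in Y1CTL by Ribo-seq (log2 difference 0.90, unadjusted p = 0.0178 in limma). Bhlhe40, a repressor that also works in the circadian clock, had 56.5 and 74.4 RPKM in Y1cKO against 87.4 and 106.9 RPKM in Y1CTL (log2 difference -0.57, unadjusted p = 0.0203). Csrnp2 had 1.44 and 1.11 RPKM in Y1cKO against 2.47 and 2.29 RPKM in Y1CTL by Ribo-seq (log2 difference -0.70, unadjusted p = 0.0241 in limma). Groups thus lay apart with Y1cKO higher for Egr3, as in 15.4% of all genes. They lay apart with Y1cKO lower for Bhlhe40 and Csrnp2, as in 14.1% of all genes. By RNA-seq 12 of the 20 were above 0, beside 67.2% of all genes, and 5 had an unadjusted p under 0.05, 4 with Y1cKO higher and Bhlhe40 with Y1cKO lower, beside 11.8% of all genes. Cebpd, an early factor of adipocyte differentiation, had 2.84 and 2.83 RPKM in Y1cKO against 0.607 and 0.968 RPKM in Y1CTL by RNA-seq (log2 difference 1.39, unadjusted p = 0.0071, adjusted p = 0.401 in limma). Nfil3, a bZIP repressor, had 14.8 and 14.1 RPKM in Y1cKO against 7.23 and 6.56 RPKM in Y1CTL (log2 difference 1.02, unadjusted p = 0.00177). The footprints of both overlapped between genotypes, and their TE differences were -1.40 and -1.20. Klf4 also had a higher RNA-seq level in both Y1cKO libraries, at 14.0 and 10.4 RPKM, against 7.76 and 5.45 RPKM in Y1CTL.

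Of 38 other feedback and effector genes, 36 were tested by Ribo-seq, 15 above and 21 below 0 with a median of -0.04. An unadjusted p under 0.05 in limma was reached by 1 of 36 by Ribo-seq (2.75% of all genes). By RNA-seq 3 of 35 reached it (11.8% of all genes), and for TE 1 of 34 (8.66%). Ccn2 (connective tissue growth factor) had 5.74 and 4.77 RPKM in Y1cKO against 2.91 and 2.34 RPKM in Y1CTL by Ribo-seq (log2 difference 0.88, unadjusted p = 0.00532, adjusted p = 1.00 in limma). Errfi1, a feedback inhibitor of the epidermal growth factor receptor, had 11.2 and 9.70 RPKM in Y1cKO against 5.15 and 5.36 RPKM in Y1CTL by RNA-seq (log2 difference 0.93, unadjusted p = 0.0039). Spry1, an inhibitor of receptor tyrosine kinase signalling, had 7.77 and 6.69 RPKM in Y1cKO against 3.92 and 4.14 RPKM in Y1CTL by RNA-seq. Its footprints were 1.57 and 1.65 RPKM in Y1cKO against 1.62 and 1.74 RPKM in Y1CTL, which gave a TE difference of -0.81 (unadjusted p = 0.0232 in limma).

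Of 28 upstream kinases, receptors and promoter-bound factors, 18 were above and 10 below 0 by Ribo-seq, with a median of 0.04. In limma 1 of the 28 had an unadjusted p under 0.05 by Ribo-seq (2.75% of all genes). The count was 3 by RNA-seq (11.8% of all genes) and 1 for TE (8.66%). Srf, which encodes serum response factor, had 4.59 and 4.10 RPKM in Y1cKO against 2.40 and 3.05 RPKM in Y1CTL by Ribo-seq (log2 difference 0.59, unadjusted p = 0.0299 in limma). Adrb3, the beta-adrenergic receptor of adipocytes, had 153 and 147 RPKM in Y1cKO against 103 and 68.0 RPKM in Y1CTL by RNA-seq (log2 difference 0.84, unadjusted p = 0.0169). Its footprints were 44.1 and 39.9 RPKM in Y1cKO against 39.4 and 41.9 RPKM in Y1CTL, and its TE difference was -0.79. Mrtfb, a cofactor of serum response factor, had 13.1 and 11.3 RPKM in Y1cKO against 8.25 and 8.35 RPKM in Y1CTL by RNA-seq (log2 difference 0.53).

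The genes whose profile was most like the members' were sought among 6617 others that averaged 5 RPKM or more in each assay. The measure was Pearson's r with the median profile of the 9 members tested, over the log2 levels of 8 libraries centred within each assay, as a description. The 5 highest were Tma7, Sirt7, Commd6, Fcer1g and Irf1, with r between 0.962 and 0.968. Irf1, an interferon-responsive transcription factor, had 97.8 and 98.3 RPKM in the Y1cKO Ribo-seq libraries against 91.3 and 79.0 RPKM in the Y1CTL Ribo-seq libraries. Fcer1g, a signalling chain of Fc receptors in myeloid cells, had 11.0 and 6.68 RPKM in the Y1cKO RNA-seq libraries against 2.96 and 11.8 RPKM in the Y1CTL RNA-seq libraries. Each of the 5 was lowest by RNA-seq in Y1CTL replicate 1, as was the profile by which they were chosen (-0.45), so this follows from the choice. Among the members, r with the profile was highest for Nr4a1 (0.933), Zfp36 (0.884) and Egr1 (0.853) and lowest for Jun (0.279) and Fosb (-0.25). Fosb was not used for the profile. Each other member is part of the median it is compared with, so its r is no independent measure of likeness.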

How the data were processed

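The authors trimmed and mapped the reads (HISAT2 2.2.1, mm8), and the deposited tables hold 1 RPKM value per gene and library. For the counter and strandedness, nothing is given in the sources used here. At least 99.9% of values equalled a whole number of reads (tolerance 0.01 read), so reads were computed back, and a gene not listed in a Ribo-seq table was taken as 0. Members and lists were chosen with earlier results of these data known. Genotypes were compared by limma 3.58.1 (R 4.3.3, intensity trend) on log2(RPKM + 0.5), separately in each assay, for genes averaging 0.5 RPKM or more. TE was fitted over 8 libraries, with its change as the assay-by-genotype interaction. P-values are two-sided, adjusted by Benjamini-Hochberg over all genes tested. The text names all members, and from other lists some of the 3 genes with the smallest p in a comparison. The fits were tested on simulated data. Headers of the Y1cKO RNA-seq tables swap the replicate numbers of the labels, which were followed. Counting intervals are exact (Poisson, or Clopper-Pearson for ratios), with a floor of 3 reads for a count of 0. Alternatives changed the pseudocount, filter, scaling, trend, test (voom), block and libraries. Figures were drawn with matplotlib 3.10.9.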

Additional observations from a re-analysis of the deposited data

How the results depend on the processing

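No member passed an adjusted p of 0.05 under any alternative run. Among all genes, limma called 0 in each comparison, and so did voom on the reads. The exceptions were 21 genes by Ribo-seq with no filter, and fits with a library left out, with 0 to 51 genes by Ribo-seq, 0 to 665 by RNA-seq and 0 to 963 for TE, where the lone library is assumed to vary like the other group. Same-numbered libraries of the genotypes shared only a number (Pearson's r of their deviations -0.02 by RNA-seq and 0.05 by Ribo-seq). A fit with the replicate block also called 0 genes. Its members' medians of 0.33, 0.26 and 0.09 cannot differ from those without the block in this balanced design. Between the assays, libraries with the same number deviated in opposite directions (r = -0.24 in Y1cKO and -0.14 in Y1CTL) under the labels' numbers, while the numbers in the Y1cKO RNA-seq table headers would turn the Y1cKO value to 0.24, so the pairing is not settled. TE from crossed pairs, added after the data were seen, called 0 genes, as did TE from same-numbered pairs.

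With a library left out, the members' median ranged from 0.15 to 0.43 by Ribo-seq, from -0.38 to 0.49 by RNA-seq and from -0.38 to 0.65 for TE. The ranges that crossed 0 were, by Ribo-seq, -0.41 to 1.08 for Fos, -0.12 to 0.046 for Junb and -0.12 to 0.99 for Atf3. By RNA-seq they were -0.14 to 0.66 for Fos, -0.87 to 0.16 for Junb, -0.52 to 1.00 for Egr1, -0.62 to 0.39 for Ier2 and -0.49 to 1.06 for Nr4a1. For TE they were -1.07 to 1.22 for Fos, -0.35 to 0.15 for Jun, -0.11 to 0.75 for Junb, -0.46 to 0.65 for Egr1, -0.24 to 0.73 for Ier2, -0.99 to 1.19 for Nr4a1 and -0.59 to 0.28 for Zfp36. With all libraries kept, 1 direction turned in 246 fits of a member, the TE difference of Jun (0.050 after scaling to the same median). Of these fits, those that change the filter, trend, block or pairing, or join both assays, cannot change a member's difference. Only the pseudocount, scaling and voom could turn a direction, so the count overstates how firm the directions are. Fosb was tested only with no filter, or once with a library left out. The causes were not tested. Depth limits Fosb, Atf3 and Fos, whose reads per library are few.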

Other observations

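Heat shock genes answer to another factor, heat shock factor 1. Of 8 inducible heat shock genes, 7 were tested by Ribo-seq, 1 above and 6 below 0 for Y1cKO minus Y1CTL, with a median of -0.27, and 0 passed an adjusted p of 0.05 in limma. Dnaja1, a co-chaperone of the 70-kilodalton heat shock proteins, had 144 and 186 RPKM in Y1cKO against 209 and 203 RPKM in Y1CTL by Ribo-seq (log2 difference -0.33, unadjusted p = 0.0962 in limma). Hsph1, another chaperone, had 23.2 and 29.8 RPKM in Y1cKO against 47.4 and 28.4 RPKM in Y1CTL, with groups that overlapped. Among the 7 genes, 1 had an unadjusted p under 0.05 in limma by RNA-seq (11.8% of all genes) and 2 for TE (8.66%). Bag3, a co-chaperone in selective autophagy, had 32.3 and 25.9 RPKM in Y1cKO against 18.1 and 18.1 RPKM in Y1CTL by RNA-seq (log2 difference 0.66, unadjusted p = 0.0141), while its footprints were 29.1 and 29.2 RPKM in Y1cKO against 30.8 and 29.7 RPKM in Y1CTL (TE difference -0.72, unadjusted p = 0.0113 in limma).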
